A study of Mus musculus with 8 samples.

Results

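The 33 S phase and replication genes described here were chosen by name, and all 33 were found among the 19938 genes with 1 gene symbol on Affymetrix MoGene 1.0 ST arrays. They code for proteins that license origins, unwind and copy DNA, supply nucleotides and pack the new DNA into chromatin. The list also holds E2F factors and E cyclins that control these genes, and repair and checkpoint genes. RNA came from cultured primary myoblasts, the dividing progeny of the satellite cells of muscle. The 8 arrays were 4 labelled WT and 4 labelled Runx1f/f, numbered 1 to 4 within each label and called biological replicates there. All animals were C57bl/6 and 2 to 3 weeks old, the cells came from the gastrocnemius muscle, and both groups were grown on Matrigel in the same proliferation medium with no agent added. Runx1f/f marks a floxed Runx1 allele, and the labels also use the word KO for these cells. The sources used here do not give the Cre driver, how the allele was recombined or how many animals made up a culture.

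A cell copies its genome once per cycle. In G1, Cdc6 and Cdt1 load the ring of Mcm2 to Mcm7 onto origins, and at the start of S phase Cdc45 and the GINS proteins turn that ring into the moving helicase behind which the polymerases work. E2F factors, freed from the retinoblastoma family when G1 cyclins and their kinases act, transcribe most of these genes in a burst each cycle. Myoblasts that leave the cycle to fuse into muscle fibres shut these genes down while they turn on the contractile genes.

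The deposited values carried a constraint that comes before any result. In every row, 3 sets of arrays had the same mean within 7.5e-05 on the log2 scale: all WT arrays, the pair Runx1f/f 1 and 2, and the pair Runx1f/f 3 and 4. Runx1f/f 1 and 2 are therefore mirror images around a gene's mean, as are Runx1f/f 3 and 4, and 8 columns hold 5 independent values beside the mean. The comparison of the labelled genotypes was fixed at 0 by this: limma called 0 of the 33 members higher and 0 lower in Runx1f/f arrays (adjusted p under 0.05), against a background of 0% of 19938 genes, and 0 members had an unadjusted p under 0.05. The largest difference of a member between the labels was 5e-05 in size, in Rrm1. These counts do not measure an effect of Runx1 on replication genes. Runx1 itself, the targeted gene, read 9.15, 9.99, 10.27 and 9.25 across WT 1 to 4 and 9.35, 9.98, 9.89 and 9.44 across Runx1f/f 1 to 4, so that it was higher in the arrays numbered 2 and 3 under both labels, by 0.74 on average (1.67-fold). The sources used here do not say which part of Runx1 was deleted or whether the probe set lies in it, so this value does not check the labels. With equal means in the deposited table, whether each column holds the sample its label names cannot be told from these values.

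Members were therefore compared between the 4 arrays numbered 2 and 3 and the 4 arrays numbered 1 and 4, with both labels in each set. Earlier work on these values had shown the arrays to part in this way, so the comparison is a description and no test was run on it. Values are log2 intensities after RMA, listed for numbers 1 to 4 in that order. A difference is the mean of numbers 2 and 3 minus the mean of numbers 1 and 4, and a level of one gene is not set against that of another, because probe sets differ in how they bind. Means are given ± SD over the 4 arrays of a set. The Runx1f/f arrays of a set mirror those of the other set. Such an SD therefore describes a spread of readings and is not that of 4 independent replicates. In bulk RNA, fewer cells in S phase and less of a transcript in each such cell cannot be told apart.

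The replication genes were lower in the arrays numbered 2 and 3. Of the 33 members, 31 had a negative difference, against 52.8% of all genes. The median difference was -0.28 (1.21-fold), with members from -0.55 to 0.17, while the median of all genes was -0.01. In 21 members, all 4 arrays numbered 2 and 3 read below all 4 arrays numbered 1 and 4. The background for such a gap was 10.5% of all genes. In the opposite direction 0 members were free of overlap, against 9.87% of all genes, and the remaining 12 members overlapped. A difference of at least 1.2-fold downward was seen in 20 members, against 5.13% of all genes.

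**Figure D1:**
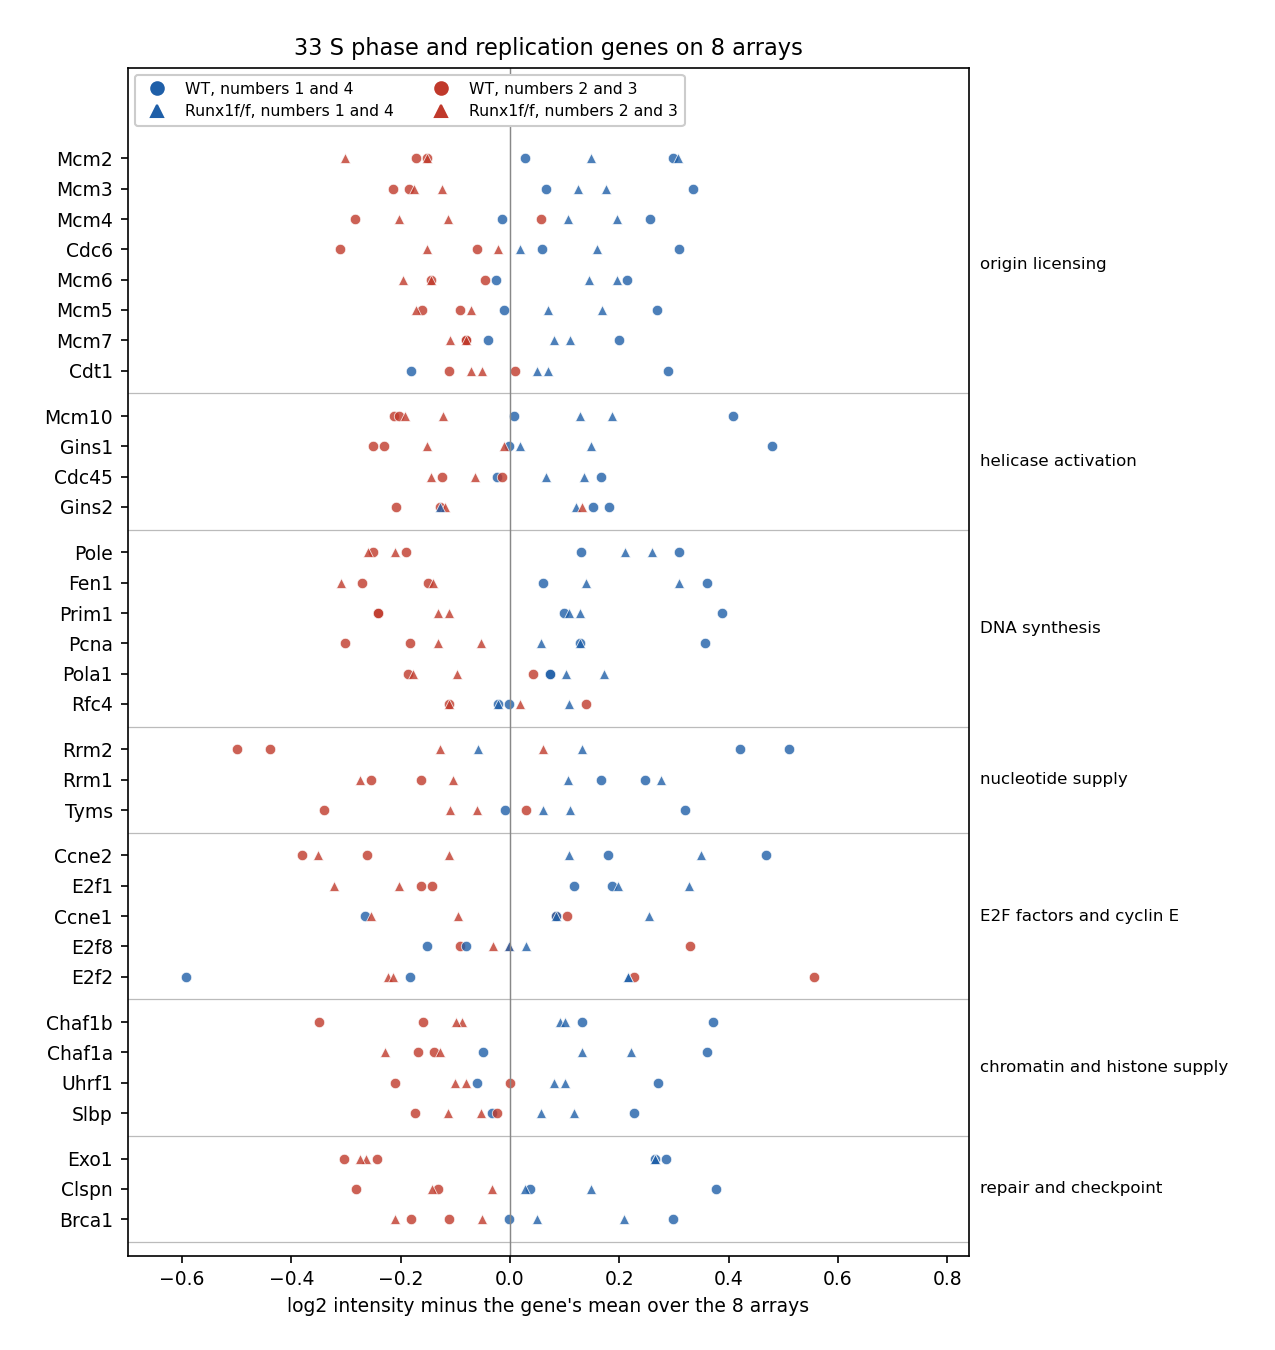
Each row is 1 of the 33 members, grouped by role, and each point is 1 array, placed at its log2 intensity minus the gene's mean over the 8 arrays. Circles are WT and triangles Runx1f/f arrays, red marks numbers 2 and 3 and blue numbers 1 and 4, and in 21 rows all red points lie left of all blue points.

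The licensing genes are the 8 members that build the Mcm ring on DNA. Of these, 6 were lower in numbers 2 and 3 without overlap, against 10.5% of all genes. Their median difference was -0.27. Mcm2, a subunit of the ring, stood at 8.45, 8.27, 8.25 and 8.72 across the WT arrays and at 8.57, 8.27, 8.12 and 8.73 across the Runx1f/f arrays. Its 4 lowest arrays were thus the 4 numbered 2 and 3, at 8.23 ± 0.07 against 8.62 ± 0.13 (n = 4 each), a difference of -0.39 (1.31-fold). Mcm3, its neighbour in the same ring, had WT values of 8.11, 7.83, 7.86 and 8.38 and Runx1f/f values of 8.22, 7.87, 7.92 and 8.17, a difference of -0.35. In Mcm3 too the sets did not touch, with 0.18 between the highest array of numbers 2 and 3 and the lowest of numbers 1 and 4.

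Mcm5, Mcm6 and Mcm7 were lower by smaller amounts. Mcm5 differed by -0.25, Mcm6 by -0.26 and Mcm7 by -0.17, and the gaps between the sets were 0.06, 0.03 and 0.04. Mcm4 differed by -0.27, as much as these, yet its sets overlapped, since WT 2 read 8.33 and WT 1 read 8.26. Cdc6, the ATPase that loads the ring, stood at 6.50, 6.38, 6.13 and 6.75 across the WT arrays and at 6.46, 6.42, 6.29 and 6.60 across the Runx1f/f arrays. Its difference was -0.27 with a gap of 0.04. Cdt1, its partner, stood apart from the rest of the licensing group with a difference of -0.11: WT 1 was its lowest array at 8.36 and WT 4 its highest at 8.83.

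The helicase is switched on by Mcm10, Cdc45 and the GINS complex, of which Gins1 and Gins2 are members. Mcm10 had WT values of 5.90, 5.68, 5.69 and 6.30 and Runx1f/f values of 6.02, 5.77, 5.70 and 6.08. Numbers 2 and 3 spanned only 5.68 to 5.77 there, and the difference was -0.36 (1.29-fold). Gins1 differed by -0.32, with 0.02 between the sets, and WT 4 stood highest at 7.25. Cdc45, which travels with the helicase, differed by -0.17 and overlapped by a narrow margin, WT 2 reading 7.08 and WT 1 reading 7.07. Gins2 did not follow its partner on every array: it was lower in number 2 than in number 1 under both labels, but read 6.29 in Runx1f/f 3 and 6.03 in Runx1f/f 4.

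Among the 6 genes of DNA synthesis, 5 were lower without overlap (10.5% of all genes), with a median difference of -0.35. Pole, the catalytic subunit of the leading-strand polymerase, stood at 6.74, 6.42, 6.36 and 6.92 across the WT arrays and at 6.82, 6.40, 6.35 and 6.87 across the Runx1f/f arrays. Numbers 2 and 3 stood at 6.38 ± 0.04 and numbers 1 and 4 at 6.84 ± 0.08, a difference of -0.45 (1.37-fold) with 0.31 between the sets. Fen1, the nuclease that trims Okazaki fragments, had WT values of 7.03, 6.82, 6.70 and 7.33 and Runx1f/f values of 7.28, 6.66, 6.83 and 7.11, a difference of -0.43. The mean differences of Fen1 were alike in both labels, -0.42 in WT and -0.44 in Runx1f/f arrays. The single arrays were less even: WT 2 minus 1 was -0.21 and WT 3 minus 4 was -0.63. For Runx1f/f arrays the same values were -0.61 and -0.27.

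Prim1, the catalytic subunit of primase, stood at 7.61, 7.27, 7.27 and 7.90 across the WT arrays and at 7.64, 7.38, 7.40 and 7.62 across the Runx1f/f arrays, a difference of -0.36. Pola1, the polymerase that works with primase, differed by -0.21 with a gap of 0.03. Pcna, the sliding clamp, had WT values of 10.28, 9.97, 9.85 and 10.51 and Runx1f/f values of 10.28, 10.02, 10.10 and 10.21. Its difference was -0.34, larger in WT (-0.49) than in Runx1f/f arrays (-0.19). A second Pcna probe set gave -0.34 as well, also without overlap. Its WT values, 10.28, 9.96, 9.85 and 10.5, were almost those of the first. Whether they share probes was not checked, so it is not counted as a separate measurement. Rfc4, a subunit of the complex that loads the clamp, was the exception in this group: its 8 arrays ran from 7.93 to 8.18, the narrowest range among the 33 members, and its difference was -0.03.

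Nucleotide supply is represented by Rrm1 and Rrm2, the subunits of ribonucleotide reductase, and by Tyms, which makes thymidylate. Rrm1 stood at 10.81, 10.40, 10.31 and 10.73 across the WT arrays and at 10.67, 10.46, 10.29 and 10.84 across the Runx1f/f arrays. The sets lay 0.21 apart, at 10.37 ± 0.08 and 10.76 ± 0.08, with a difference of -0.39 (1.31-fold). Rrm2 had the widest difference of any member within WT, -0.93, from 11.49, 10.63, 10.57 and 11.58. Under the Runx1f/f label it read 11.01, 11.13, 10.94 and 11.20, a difference of -0.07, and the order of numbers 1 and 2 was turned. Rrm1, its partner in the enzyme, differed by -0.41 in WT and by -0.37 in Runx1f/f arrays. Whether the labels differ in Rrm2 was not tested. Tyms differed by -0.24 with overlap, WT 2 reading 7.64 and WT 1 reading 7.60.

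The E2F factors and E cyclins were the least uniform group. Of 5 members, 2 were lower without overlap (10.5% of all genes), and the median difference was -0.08. Ccne2, an E cyclin that activates Cdk2 at the start of S phase, had the largest overall difference of the 33 members. It had WT values of 6.75, 6.31, 6.19 and 7.04 and Runx1f/f values of 6.68, 6.46, 6.22 and 6.92, giving 6.29 ± 0.12 against 6.85 ± 0.16 and a difference of -0.55 (1.47-fold). E2f1, the activator E2F best known for driving S phase genes, stood at 6.06, 5.71, 5.73 and 5.99 across the WT arrays and at 6.20, 5.55, 5.67 and 6.07 across the Runx1f/f arrays. Its sets were 0.26 apart, with a difference of -0.42 (1.34-fold).

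Their close relatives had other patterns. Ccne1, the other E cyclin, differed by 0.18 in WT and by -0.35 in Runx1f/f arrays, and WT 1 was its lowest array at 8.36. E2f8, an atypical E2F that represses E2F targets, differed by 0.10, with WT 3 at 8.12 and the other 7 arrays between 7.64 and 7.82. E2f2, another activator E2F, went in opposite directions under the 2 labels. Its WT values were 5.16, 5.98, 6.31 and 5.57, a difference of 0.78. Its Runx1f/f values were 5.97, 5.53, 5.54 and 5.97, a difference of -0.44. The sets did not overlap within either label. Such opposite directions without overlap were seen in 8.31% of all genes, and the difference between the labels was not tested.

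**Figure D2:**
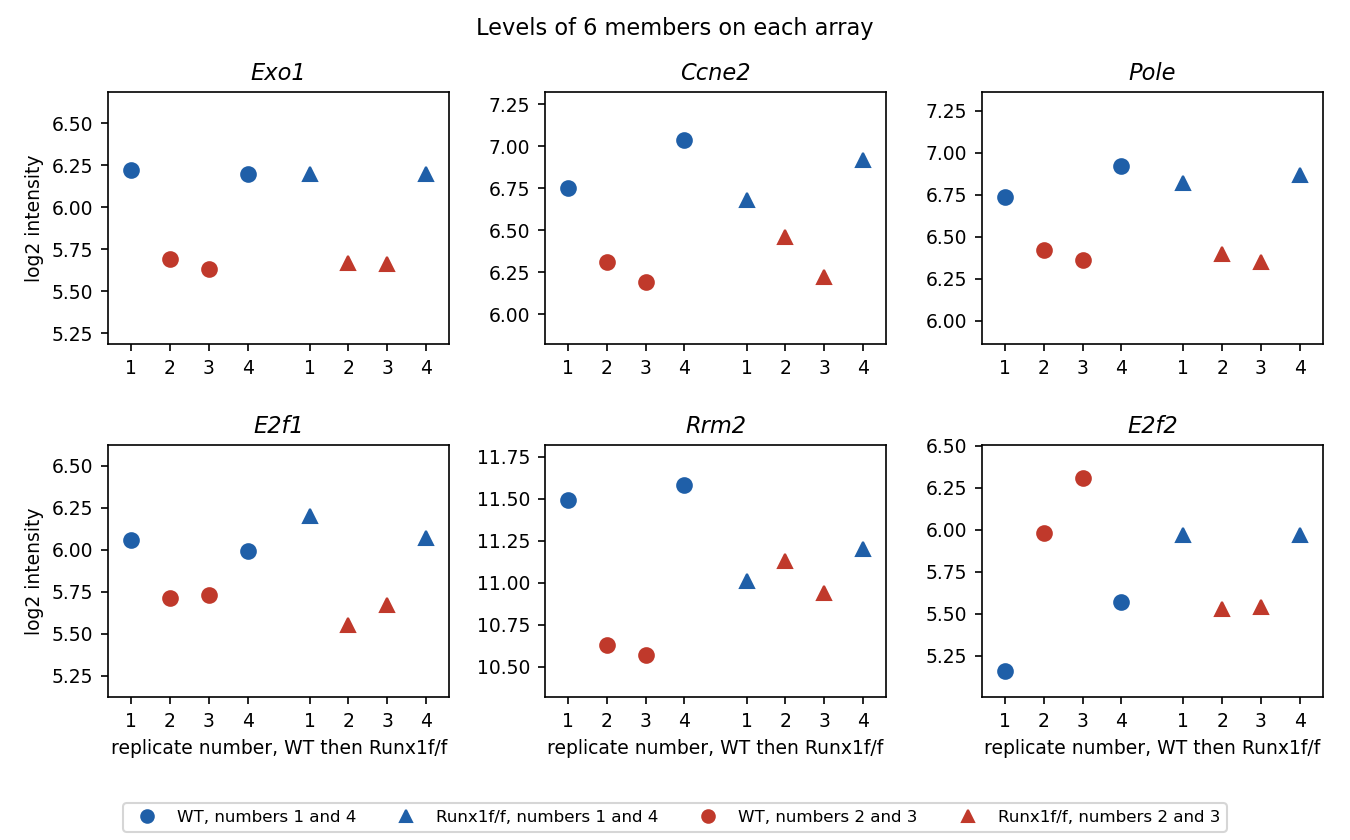
The log2 intensity of 6 members is plotted for replicate numbers 1 to 4, WT (circles) and then Runx1f/f (triangles), with numbers 2 and 3 in red, on axes of equal length. Exo1, Ccne2, Pole and E2f1 are lower in all 4 red arrays, Rrm2 mainly so in WT (difference -0.93), and E2f2 is higher in the red WT arrays (difference 0.78) and lower in the red Runx1f/f arrays (difference -0.44).

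New DNA is wrapped in histones as it is made. Chaf1a and Chaf1b, subunits of the histone chaperone CAF-1, were both lower without overlap, by -0.33 and -0.35. Chaf1b had WT values of 7.30, 7.01, 6.82 and 7.54 and Runx1f/f values of 7.26, 7.08, 7.07 and 7.27, so the WT arrays were spread wider. Uhrf1, which brings the maintenance DNA methyltransferase to new DNA, and Slbp, which binds the stem-loop of histone mRNAs, differed by -0.19 and -0.18 and overlapped. A second Slbp probe set differed by -0.24, also with overlap.

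The 3 repair and checkpoint members were lower without overlap, against 10.5% of all genes. Exo1, an exonuclease of mismatch repair and end resection, gave the cleanest separation of all members. It stood at 6.22, 5.69, 5.63 and 6.20 across the WT arrays and at 6.20, 5.67, 5.66 and 6.20 across the Runx1f/f arrays. Numbers 2 and 3 stood at 5.66 ± 0.02 and numbers 1 and 4 at 6.20 ± 0.01, a difference of -0.54 (1.45-fold) with 0.51 between the sets. Brca1, which acts in homologous recombination, and Clspn, the adaptor through which the Atr kinase activates Chek1, differed by -0.28 and -0.30. Their gaps were 0.05 and 0.06.

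The promoters of replication genes are known for E2F sites, and their letters were read from RefSeq windows (GRCm38.p6) of 250 bases before and 50 after each annotated start. Windows were found for 27 members and not for Mcm4, Gins1, Gins2, Ccne2, Pole and Exo1. The E2F type letters TTTCCCGC, TTTCGCGC, TTTGCCGC or TTTGGCGC, on either strand, were present in 10 of 27 members (37%), against 2.6% of 27025 genes with a window. The 10 were Mcm3, Mcm5, Mcm6, Mcm7, Cdc6, Cdt1, E2f2, Uhrf1, Pola1 and Clspn. The letters CCAAT, the box bound by NF-Y, were present in 19 of 27 members (70.4%) and in 41.1% of all genes. The CHR type letters TTTGAA or TTCGAA, which mark many mitotic genes, were in 6 of 27 members (22.2%) and in 21.7% of all genes. Among 27 G2/M genes with a window, 1 held the E2F letters (3.7%) and 21 the CHR letters (77.8%). A match is a string of letters, not a bound site, and only the exact strings named were searched.

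Stretches of 4 such promoters are printed because these members were lower without overlap, the stretch lies before the start and outside every gene span in the annotation. Mcm5 and Mcm6 show the E2F type letters. Rrm1 and Mcm2, which have none of these exact strings in their windows, show CCAAT and have the largest differences among such members. All run 5′ to 3′ on the gene's strand. Capitals mark only the E2F type letters in Mcm5 and Mcm6 and only CCAAT in Rrm1 and Mcm2. The Mcm6 stretch also holds CCAAT on the opposite strand, left in small letters as attgg. In Mcm5 and in the first match of Mcm6, matches on opposite strands overlap to form 1 run, and in Mcm2 the box reads on the opposite strand.
Mcm5 (chr8:75109331-75109392, + strand, bases -178 to -117 from the start): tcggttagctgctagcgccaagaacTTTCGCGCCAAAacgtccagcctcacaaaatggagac
Mcm6 (chr1:128359720-128359840, - strand, bases -135 to -15): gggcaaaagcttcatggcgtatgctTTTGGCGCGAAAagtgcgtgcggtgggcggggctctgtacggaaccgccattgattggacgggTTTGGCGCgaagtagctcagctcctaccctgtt
Rrm1 (chr7:102441579-102441679, + strand, bases -116 to -16): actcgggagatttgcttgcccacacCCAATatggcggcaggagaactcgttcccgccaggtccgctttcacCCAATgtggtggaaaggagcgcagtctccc
Mcm2 (chr6:88898926-88898980, - strand, bases -200 to -146): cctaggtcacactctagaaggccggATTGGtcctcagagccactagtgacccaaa

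The median difference was below 0 for members with and without the E2F letters. The 10 with a match had a median difference of -0.23, with 7 lower without overlap, and the 17 without one had a median of -0.34, with 10 lower without overlap. The background for such a gap was 10.5% of all genes. The 3 members that hold the letters and overlapped were Cdt1, E2f2 and Uhrf1. E2f2, with the letters, differed by 0.17, and E2f8, without them, by 0.10.

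The arrays did not contribute equally. Taking each array's median over the 33 members of the deviation from a gene's mean, WT 2 stood at -0.14, WT 3 at -0.20, Runx1f/f 2 at -0.11 and Runx1f/f 3 at -0.13. On the other side WT 4 stood at 0.29, Runx1f/f 1 at 0.11 and Runx1f/f 4 at 0.13, while WT 1 was at 0.01, close to the overall mean. Below their own mean were 31 and 32 of 33 members in Runx1f/f 2 and 3, and 26 and 29 in WT 2 and 3. In WT 1, 15 members were below their mean. Without WT 1, 27 members separated without overlap (against 14.2% of all genes) in place of 21, a count that leaving out an array cannot lower. The mirrored Runx1f/f arrays count as 1 comparison per pair.

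Each label was also read alone. In WT arrays, 23 members were lower in numbers 2 and 3 without overlap (background 23.3% of all genes) and 1, E2f2, was higher (24.5%), with a median difference of -0.31. In Runx1f/f arrays, 30 were lower (33.3%) and 0 higher (25%), with a median of -0.24, and the 3 others were Rrm2, Gins2 and Rfc4. Because these arrays are mirrored in pairs around 1 mean, no overlap there needs only number 2 below 1 and number 3 below 4. The WT arrays have to meet more than that, so the counts of the labels cannot be set against each other. Members with overlap in WT were Mcm4, Tyms, Cdt1, Cdc45, E2f8, Ccne1, Uhrf1, Slbp and Rfc4.

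**Figure D3:**
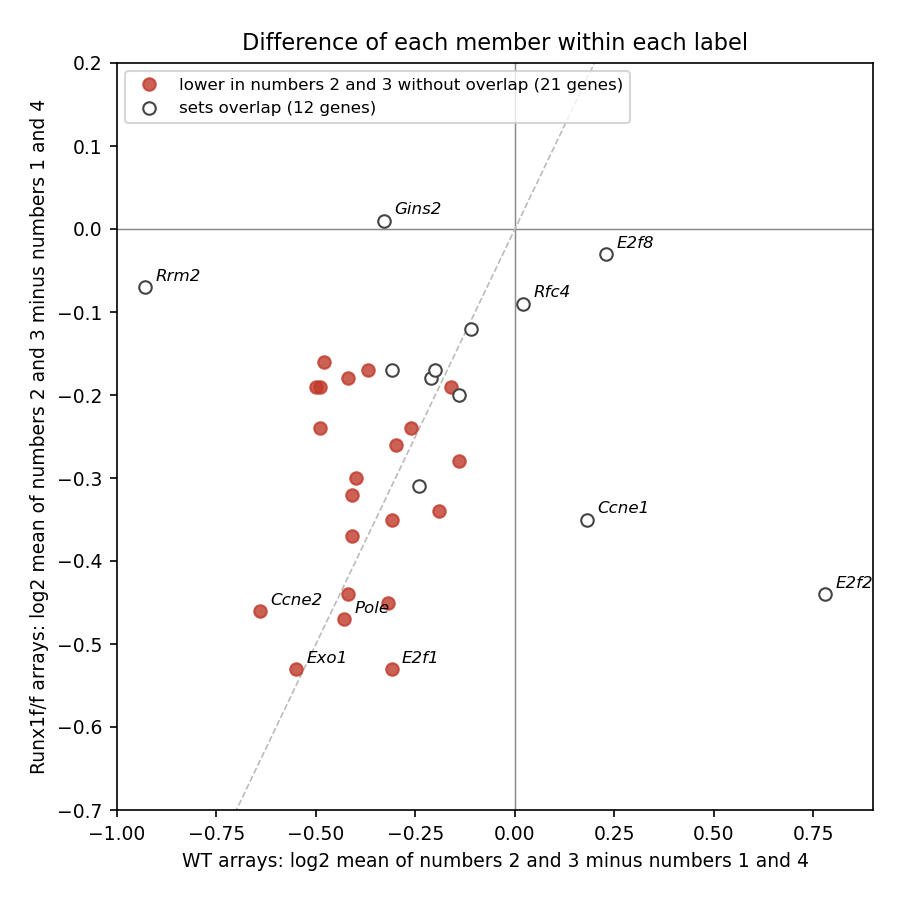
Each point is 1 of the 33 members, placed by its log2 difference (numbers 2 and 3 minus 1 and 4) in WT arrays on the horizontal axis and in Runx1f/f arrays on the vertical axis, with a dashed line of equality. The 21 filled points, lower without overlap over all 8 arrays, are below 0 on both axes, while Rrm2 lies far left near the vertical 0 (-0.93 and -0.07) and E2f2 far right below it (0.78 and -0.44).

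The labels give each sample a source number, and arrays numbered 1 and 2 carry source numbers 139 to 142, those numbered 3 carry 160 and 161, and those numbered 4 carry 181 and 189. The sources used here do not say what these runs of numbers stand for. Number 2 against number 1 lies within 1 run: 22 members were lower without overlap (24.9% of all genes), 1, Rfc4, was higher (25.8%), and the median difference was -0.21. Number 3 against number 4 lies between runs: 30 members were lower (30%), 0 were higher (23.3%), and the median was -0.39. The part that the runs play in the larger value was not tested. Averaged over the labels, the difference was close in both for Exo1 (-0.53 and -0.55), Fen1 (-0.41 and -0.45) and Brca1 (-0.30 and -0.26). It was not for Cdc6 (-0.08 and -0.46), Tyms (-0.04 and -0.44) or Mcm4 (-0.08 and -0.47). Within WT and within Runx1f/f arrays, Exo1 stayed close (-0.53 and -0.56, then -0.53 and -0.54). Fen1 (-0.21 and -0.63, then -0.61 and -0.27) and Brca1 (-0.18 and -0.42, then -0.42 and -0.11) did not.

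Single arrays of 1 label gave 4 comparisons per gene. WT 2 was below WT 1 in 23 members (43.9% of all genes), WT 3 below WT 4 in 31 (53.7%), Runx1f/f 2 below 1 in 31 (54.5%) and Runx1f/f 3 below 4 in 32 (53.8%). The median member differences were -0.16, -0.48, -0.23 and -0.26 in the same order. Lower in all 4 were 21 members, against 13.4% of all genes. These are the same 21 as above, which had to be lower in all 4 because their sets do not overlap. Lower in 3 of the 4 were 9 members, and the last 3 were E2f2, E2f8 and Rfc4.

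The remaining replication machinery was read from a list of 72 other genes, of which 70 were measured. Of these, 31 were lower in numbers 2 and 3 without overlap and 1 was higher, with a median difference of -0.20 and 65 of 70 below 0. The backgrounds are the 10.5% and 9.87% given for the members. Among them, Prim2, the large subunit of primase, differed by -0.45, Wdhd1, which couples helicase and polymerase, by -0.41, and Pold1, the catalytic subunit of the lagging-strand polymerase, by -0.39. Prim2 had WT values of 6.73, 6.22, 6.33 and 7.02 and Runx1f/f values of 6.75, 6.41, 6.44 and 6.71, the same order of sets as its partner Prim1.

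The gene that went the other way was Pold4, the small subunit of the same lagging-strand polymerase. It stood at 7.44, 7.47, 7.65 and 6.93 across the WT arrays and at 7.05, 7.69, 7.49 and 7.25 across the Runx1f/f arrays, 7.58 ± 0.11 against 7.17 ± 0.22, a difference of 0.41 (1.33-fold higher). Next in that direction, all with overlap, came Cdk2, the kinase partner of the E cyclins, at 0.10, and E2f5 and the origin subunit Orc3, both at 0.02.

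Lists of other cell cycle genes had medians nearer 0. Of 32 measured G2/M genes, 12 were lower without overlap (37.5%, against 10.5% of all genes) and 1 was higher (3.12%, against 9.87%). Their median was -0.15, and 29 of the 32 were below 0. Birc5, the survivin of the chromosomal passenger complex, differed by -0.37 and Prc1, which bundles spindle microtubules, by -0.33, whereas the phosphatase Cdc25b was higher, by 0.79. Among 14 D cyclins, Cdk4/6, pocket proteins and Cdk inhibitors, 3 were lower (21.4%) and 2 higher (14.3%) without overlap, with a median of 0.03. Cdkn1c, which codes for the Cdk inhibitor p57, had WT values of 6.10, 11.05, 11.36 and 6.56 and Runx1f/f values of 7.25, 10.29, 10.17 and 7.37, a difference of 3.90. Rb1, the retinoblastoma protein that holds E2F factors, differed by 0.82 and the cyclin Ccnd1 by -0.33. These lists were not tested against each other.

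**Figure D4:**
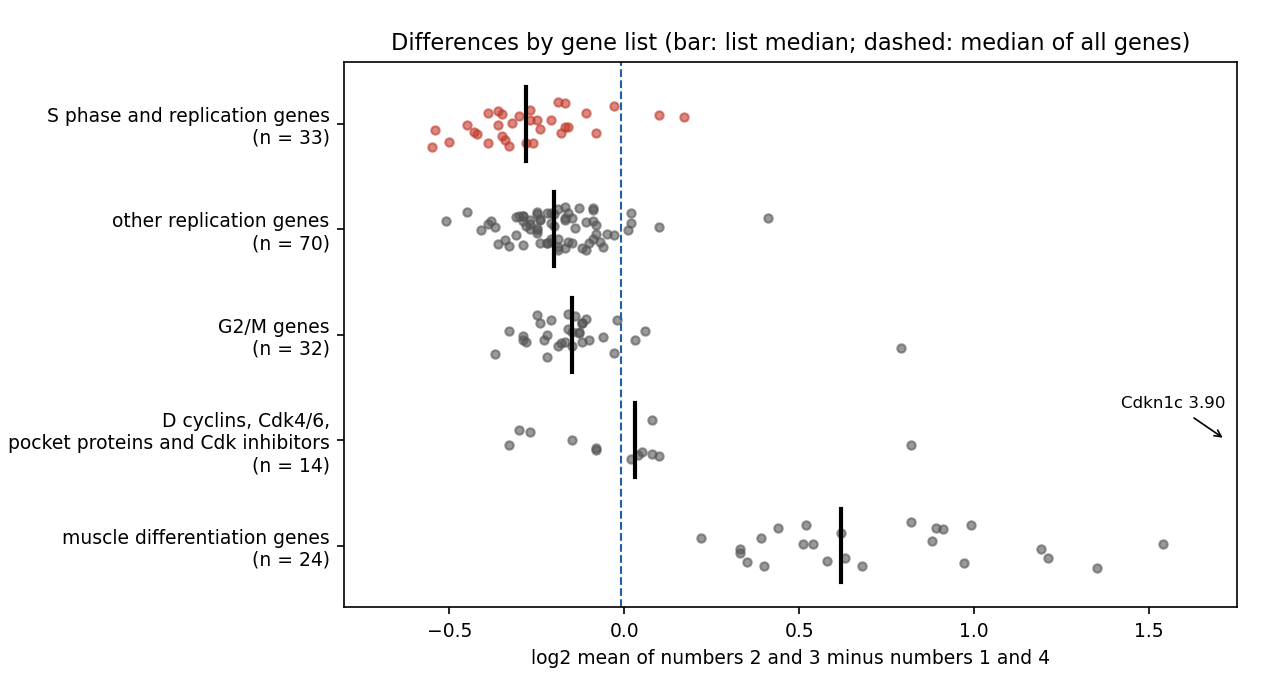
Each point is a gene's log2 difference (numbers 2 and 3 minus 1 and 4), by gene list, with a black bar at the list's median, a dashed line at the median of all genes (-0.01) and vertical scatter for visibility only. The medians are -0.28 for the S phase and replication genes, -0.20 for other replication genes, -0.15 for G2/M genes, 0.03 for D cyclins to Cdk inhibitors and 0.62 for muscle differentiation genes, and Cdkn1c lies off the axis at 3.90.

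Muscle differentiation genes were higher in the same arrays in which the replication genes were lower. Of 24 measured, 19 were higher in numbers 2 and 3 without overlap (9.87% of all genes) and 0 lower (10.5%). Their median difference was 0.62, and the largest were those of Mybpc1 (1.54), Myoz2 (1.35) and Cav3 (1.21). Their summed linear intensity was 32376 to 43459 in numbers 1 and 4 and 50174 to 67783 in numbers 2 and 3. Of 9 myoblast markers, 3 were lower and 3 higher without overlap, against the same 10.5% and 9.87% of all genes. Myod1 read 11.12 to 11.57 on the 8 arrays and differed by -0.26. Myf5 differed by -0.89, and Des read 11.13 to 11.47 and differed by 0.18. Myog, the myogenic factor that marks the start of differentiation, read 10.74 to 11.94 and was higher in numbers 2 and 3 by 0.76, as was the adhesion molecule Cdh15 by 0.25. Met, the receptor for hepatocyte growth factor, differed by -0.26 with overlap. The sums of this list were 13852 to 14773 and 14293 to 15663. By array, the median deviation of the muscle genes from their own means was -0.13, 0.26, 0.28 and -0.44 for the WT arrays, and -0.60, 0.60, 0.13 and -0.13 for the Runx1f/f arrays. The array with the highest replication genes was WT 4 (0.29), and the one with the lowest muscle genes was Runx1f/f 1. The part of muscle differentiation in the lower replication genes was not tested.

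Markers of other cells were read from the same arrays. For all genes, 10.5% were lower and 9.87% higher without overlap, and the counts of these short lists stand beside those shares. Of 9 measured fibroblast markers, 0 separated without overlap. Their sums were 1243 to 1972 in numbers 1 and 4 and 1091 to 1708 in numbers 2 and 3. The highest value on this list was 10.39, and its widest differences were in Postn (0.34), Col1a2 (-0.28) and Thy1 (-0.22). Of 9 leukocyte markers, 0 were lower and 2 higher, with every value at 4.78 or below and sums of 108 to 113 and 112 to 119. Itgam, Cd68 and Csf1r differed by 0.23, 0.13 and 0.08. Of 8 endothelial markers, 3 were lower and 2 higher, with sums of 91.3 to 92.8 and 88.2 to 90.2. Every endothelial value was at 3.76 or below, under the lowest array median of 4.39, so these are small differences between dim readings. Pecam1, Tek and Tie1 differed by -0.19, -0.14 and 0.07.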

How the data were processed

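The authors deposited 1 table of log2 intensities, with a value per probe set and array. Per the submitters' processing notes, the tools were RMA and Partek (no versions given), and no further adjustment is recorded. Array medians were 4.39 to 4.41, and no columns were identical. The 8 arrays limit the precision. Of 35399 rows, 21789 had 1 symbol in the platform annotation and 1621 had several. Each gene took its probe set with the highest mean, with no filter on dim genes. The genotype comparison used lmFit and eBayes of limma 3.58.1 (R 4.3.3) over all genes (Benjamini-Hochberg, threshold 0.05, two-sided), and the fit was tested on simulated data. The members, lists and array sets were chosen with earlier results of these data known. Named genes are all members, Runx1, Myod1, Myf5, Des and the 3 largest differences of each list (4 each way for other replication genes, where Orc3 and E2f5 tie within rounding), plus Cdh15, added after its value was seen; 1 other replication gene that the rule names is not reported here.

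The replicate numbers recur in both labels. Deviations from the genotype mean correlated by 0.39, 0.46, 0.60 and 0.57 for numbers 1 to 4, so 1 alternative fit took them as pairs. WT 4 correlated more with Runx1f/f 1 (0.64), and WT 1 more with Runx1f/f 4 (0.41), than with their own numbers. The labels state no pairing, and the mirrored Runx1f/f arrays are not independent. Alternatives were blocks for the number and the source run, 2 scalings, a dim filter, other probe set and variance rules, 1.2-fold limits and each array left out.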

Additional observations from a re-analysis of the deposited data

Results flagged for a closer look

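E2f2 was marked because its arrays numbered 2 and 3 were higher than numbers 1 and 4 in WT (0.78) and lower in Runx1f/f arrays (-0.44), without overlap in either. The difference between the labels was not tested.

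A single array lay far from the other 3 of its label in 4 of 33 groups, the WT values of the members. Chance marks about 1 in 20 independent groups, and Runx1f/f values cannot be marked because they are mirrored. The marks were Mcm7 at 9.36 in WT 4, E2f8 at 8.12 in WT 3, Ccne1 at 8.36 in WT 1 and Pola1 at 6.92 in WT 3.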

How the results depend on the processing

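The count of members called between the genotypes stayed at 0 under each alternative run, including 0 with the replicate block, which keeps the equal means, so this says nothing about robustness. With 1 array left out it was 0 to 0, with at most 1 member at an unadjusted p under 0.05. The block changed no other call.

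The 21 members lower without overlap (10.5% of all genes) became 17 of 28 with genes of a mean log2 of at least 6 (17.3% of all such genes; Mcm10, E2f1, E2f2, Exo1 and Clspn are dimmer), 23 after centring (11.1%), 21 after repeated quantile normalization (11.5%), and 21 to 27 with 1 array left out. Leaving out an array cannot create an overlap, so the count with 1 array left out could not fall below 21. The count of members higher without overlap, 0 over all arrays, was 1 in WT arrays alone and 1 for number 2 against 1 alone. The median difference, -0.28, ran from -0.39 (number 3 against 4) to -0.21 (number 2 against 1), and from -0.33 to -0.23 with 1 array left out. The requirement to be lower in all 4 comparisons of single arrays, chosen after seeing the data, gave 21. Members without overlap meet it by definition. Of 523 values of single members under alternatives, 476 moved by less than the spread within a set and 47 by more, and 0 of the 21 turned direction. Where arrays were only left out or read in part, the 21 could not turn. Detection above background was not analysed here, so how far dim members are limited by signal is unknown.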
